A study of Mus musculus with 6 samples.

Results

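A set of 56 developmental transcription factor genes outside the Hox clusters was examined for chromatin accessibility in small-intestinal organoids from aged and young mice. The set held paired-type (Alx, Otx, Pitx), LIM, sine oculis (Six2, Six3, Six4 and Six6), NK-like and related (Dlx, Msx, Emx, Gbx, En, Nkx, Barx) and TALE (Irx, Meis) homeobox genes, and PAX, T-box and ZIC genes. The genes were listed with aged and young values of these same libraries in view, so the values of the set are described here without a test of age. A peak belonged to the set where the deposited annotation named 1 of these genes for it and its distance to the annotated transcription start site (TSS) was at most 50 kb. By this rule, 312 of 156733 peaks belonged to the set, at 54 of the 56 genes; Six3 and Zic4 had none. Promoter peaks, within 1 kb of the TSS, numbered 53 at 40 genes, and distal peaks numbered 259 at 48 genes.

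The aged group comprised 3 ATAC-seq libraries from C57BL/6JRj mice aged 20 to 22 months, and the young group 3 libraries from C57BL/6JRj mice aged 2 to 3 months. Organoids are epithelial cultures grown from the intestinal crypt, with stem cells and their differentiated progeny. All 6 cultures were untreated and 3 to 5 weeks old. Replicates 1, 2 and 3 of either age were taken at passage 4, 3 and 2, so that each passage gave an aged and a young library. ATAC-seq marks open chromatin by insertion of adapters with the Tn5 transposase. Whether libraries of the same age stem from different animals is not stated in the labels, so the spread between them, which the p-values measure, may be technical. Counts in peaks were 21687816 to 26093521 in aged and 7278161 to 25901670 in young libraries, and the shallowest was young replicate 1, with 5283 peaks at a count of 0. Levels are given as CPM, a peak's count relative to the library's counts in all peaks, with library sizes scaled by the TMM method.

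Homeodomain, paired-domain, T-box and ZIC zinc finger proteins bind DNA and set the identity of cells along the axes of the embryo. Most members are known from the nervous system, the skeleton of the face and limbs, the kidney, the eye or the heart, and only a few from the gut wall, where Barx1 and Nkx2-3 act in the mesenchyme. In tissues that do not use them, the start regions of such genes are often rich in CpG dinucleotides and held by Polycomb complexes.

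RefSeq promoter windows, which run from 250 bases before to 50 bases after a gene's start on GRCm38.p6, were matched to 40 of the 56 genes by symbol and gave 48 windows. Zic1 and Meis1 are shown because peaks near their starts were lower in aged organoids, and Msx1 and Irx3 because a peak covered all 300 bases of each window. All 4 lie on the minus strand, at chr9:91365719-91366018 (Zic1), chr11:19018920-19019219 (Meis1), chr5:37824536-37824835 (Msx1) and chr8:91801605-91801904 (Irx3). They are written 5′ to 3′ with every CpG in capitals.
Zic1: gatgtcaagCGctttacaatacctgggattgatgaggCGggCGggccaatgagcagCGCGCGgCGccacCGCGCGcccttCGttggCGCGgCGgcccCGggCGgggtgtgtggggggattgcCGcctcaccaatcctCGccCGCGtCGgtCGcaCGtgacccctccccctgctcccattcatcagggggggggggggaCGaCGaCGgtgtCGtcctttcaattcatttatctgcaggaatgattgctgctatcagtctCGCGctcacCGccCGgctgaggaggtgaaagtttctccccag
Meis1: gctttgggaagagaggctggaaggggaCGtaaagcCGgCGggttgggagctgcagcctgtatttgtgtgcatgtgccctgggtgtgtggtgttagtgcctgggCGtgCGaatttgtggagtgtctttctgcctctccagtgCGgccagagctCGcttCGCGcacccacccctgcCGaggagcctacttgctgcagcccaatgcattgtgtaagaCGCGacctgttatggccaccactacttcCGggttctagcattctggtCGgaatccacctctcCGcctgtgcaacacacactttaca
Msx1: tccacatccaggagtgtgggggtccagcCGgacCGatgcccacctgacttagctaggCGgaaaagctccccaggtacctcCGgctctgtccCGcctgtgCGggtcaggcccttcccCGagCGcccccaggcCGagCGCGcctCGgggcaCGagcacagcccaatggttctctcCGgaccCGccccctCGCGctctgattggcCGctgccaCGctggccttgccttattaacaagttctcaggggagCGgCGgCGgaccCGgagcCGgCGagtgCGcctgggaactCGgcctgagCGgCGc
Irx3: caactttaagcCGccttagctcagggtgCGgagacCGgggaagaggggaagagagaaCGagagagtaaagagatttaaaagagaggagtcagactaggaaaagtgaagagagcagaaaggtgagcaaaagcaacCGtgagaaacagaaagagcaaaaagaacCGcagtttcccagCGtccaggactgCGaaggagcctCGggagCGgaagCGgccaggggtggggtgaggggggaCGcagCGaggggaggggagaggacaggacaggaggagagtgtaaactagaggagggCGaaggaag
The Zic1 window holds 31 CpGs, with an observed over expected ratio of 0.969, and the Msx1 window holds 29, with a ratio of 0.794. Meis1 has 15 CpGs (ratio 0.589) and Irx3 has 14 (ratio 0.748). Across the 48 windows the median ratio was 0.718, against 0.384 in the 32851 windows of all genes, and 32 windows (66.7%) reached 0.6, against 35.8% of all. GC content had a median of 60.5% in these windows and 52.7% in all windows. The letters TAATTA, a palindrome that many homeodomains bind, stood in 4 of the 48 windows (8.33%) and in 5.29% of all windows, and in none of the 4 printed.

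Most promoters of the set were weakly open. To compare genes, the promoter peak with the most counts was taken for each gene and its CPM, averaged over the 6 libraries, was divided by the peak's length. This level had a median of 4.07 CPM per kb over the 40 genes, against 17.2 over the promoters of all 15255 genes with a promoter peak. Of the 40 genes, 28 lay below the lower quartile of all genes, 5.79 CPM per kb, and 6 lay above the median. Tbx3, a T-box repressor of limb and mammary development, was the most open at 115 CPM per kb, at percentile 98.9 of all genes. Nkx6-1, a factor of pancreatic beta cells and motor neuron progenitors, followed at 104 CPM per kb (percentile 98.3). Lhx1, which acts in the head organiser and the kidney, stood at 49.5 CPM per kb (percentile 85.6). Lhx2, a factor of eye and forebrain, was at 24.6 and Pitx3, a factor of dopamine neurons and lens, at 23.1. Msx1, a factor of teeth and face, was at 19.9. These peaks were placed by the annotated TSS. The Lhx1 peak lies inside the gene's RefSeq span, and the peak that covers its RefSeq window stood at 6.14 CPM per kb. The peak at the Nkx6-1 window was also lower, at 13.3 CPM per kb. Peaks at the windows of Pitx3, Pax9 and Tbx1, among others, were higher than those used here (53.8, 25.7 and 25.2 CPM per kb). The lowest of the 40 was Tbx4, a hindlimb factor, at 1.42 CPM per kb. For scale, the promoters of Cdx2 and Hnf4a, which act in intestinal epithelium, stood at 98.7 and 42.5 CPM per kb. Those of the gut homeobox genes Cdx1, Prox1 and Isx were lower, at 9.84, 5.19 and 3.67. The 10 gut homeobox genes with a promoter peak had a median of 22.0, and 45 developmental factors of other families a median of 4.28.

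**Figure D1:**
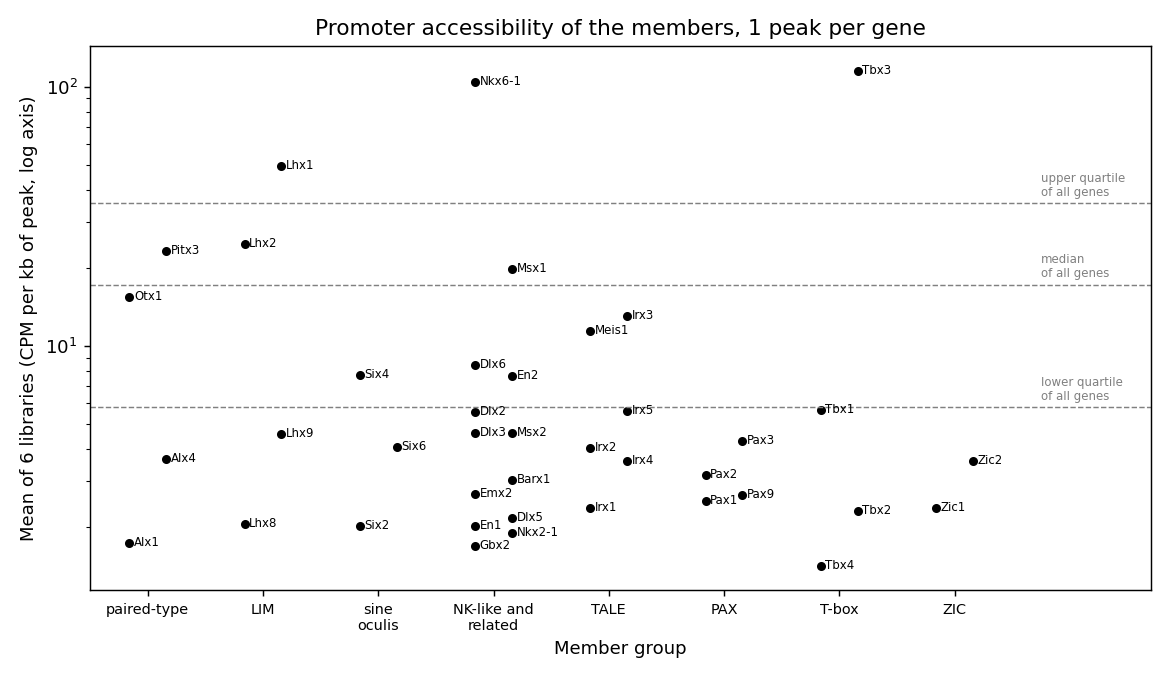
Mean promoter accessibility of the 40 genes with a promoter peak (CPM per kb of peak, log axis, mean of 6 libraries), by gene group. Dashed lines mark the quartiles of all 15255 genes. Tbx3, Nkx6-1 and Lhx1 are the only 3 genes above the upper quartile of 35.5. Below the lower quartile lie 28 of the 40. Peaks are placed by the annotated TSS, and the peak that covers the RefSeq window of Lhx1 stood at 6.14.

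The most open promoters of the set did not separate the ages. The Tbx3 peak at 0.042 kb had 92.0, 96.0 and 93.9 CPM in aged libraries, against 99.4, 84.3 and 94.6 CPM in young libraries. Nkx6-1, at 0.443 kb upstream, had 35.1, 30.6 and 28.6 CPM in aged and 34.5, 34.3 and 33.4 CPM in young libraries. Lhx1, at 0.468 kb upstream of the annotated TSS but inside the RefSeq span, had 24.8, 24.1 and 24.5 CPM in aged libraries. Its young libraries had 30.0, 22.9 and 25.5 CPM. The ages overlapped at all 3 peaks, and the log2 fold changes of aged over young were 0.02 ± 0.08, −0.12 ± 0.09 and −0.07 ± 0.10 (SE).

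Age differences past the threshold were few. A peak was called where edgeR's quasi-likelihood test, fitted over all 132055 peaks that passed a filter on low counts, gave a Benjamini-Hochberg adjusted p under 0.05. Of the 53 promoter peaks, 45 passed the filter and 8 did not. Called lower in aged organoids were 3 of the 45 promoter peaks, those of Alx1, Zic1 and Meis1, and called higher was 1, that of Otx1. DESeq2 also called 3 lower and 1 higher, beside 0.63% and 0.279% of the promoters of all genes. By edgeR, 0.949% of the promoter peaks of all genes were called lower and 0.494% higher. Among promoters of all genes under 5 CPM, a limit chosen after the values were seen, 2.04% were called lower and 0.723% higher; 34 of the 45 lay under this limit. Since the genes were listed on this contrast, nothing is read from these shares. In whole organoids, fewer cells with an open site and a less open site in each cell cannot be told apart.

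Alx1 is a paired-type homeobox gene of the facial and skull mesenchyme. Its promoter peak (chr10:103028222-103029059, 0.414 kb from the TSS) lies inside the RefSeq span of Alx1, and the annotation classes it as the 3′ end (TTS) of another gene model. It had 0.636, 0.647 and 0.466 CPM in aged libraries, against 2.25, 3.14 and 1.64 CPM in young libraries, from 14, 14 and 12 counts in aged and 16, 83 and 31 counts in young libraries. Each aged library was below every young one. The means were 0.583 ± 0.102 CPM in aged and 2.34 ± 0.757 CPM in young libraries (SD, n = 3 each), and the log2 fold change was −2.05 ± 0.30 (SE).

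Zic1, a zinc finger gene of the neural crest, dorsal neural tube and cerebellum, had called peaks at both a promoter and a distal position. The promoter peak (chr9:91361923-91362558, 0.814 kb from the annotated TSS) is classed as the promoter of another gene model and lies 3210 to 3845 bases downstream of the RefSeq start of Zic1. It had 1.0, 0.785 and 0.427 CPM in aged libraries, against 1.82, 3.14 and 1.9 CPM in young libraries, with a log2 fold change of −1.73 ± 0.30 (SE). The distal peak (chr9:91364484-91365483) lies in exon 1 of 3 of Zic1, 285 to 1284 bases downstream of the RefSeq start and so just past the printed window. It had 0.773, 1.11 and 0.582 CPM in aged libraries, against 2.67, 3.52 and 2.37 CPM in young libraries, with a log2 fold change of −1.84 ± 0.27 (SE). At both peaks every aged library was below every young one. No peak met the window itself.

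Meis1 encodes a TALE homeodomain cofactor of HOX proteins. Its promoter peak (chr11:19018790-19019205) covers 286 of the 300 bases printed above. The libraries had 4.09, 3.6 and 2.72 CPM in aged and 5.61, 5.98 and 6.38 CPM in young organoids, without overlap. The means were 3.47 ± 0.697 and 5.99 ± 0.384 CPM for aged and young libraries (SD, n = 3 each), with a log2 fold change of −0.81 ± 0.18 (SE). The call was lost without aged replicate 3, the lowest of the 6, where the log2 fold change was −0.65.

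Otx1, a paired-type homeobox gene of forebrain and sense organs, had peaks called in opposite directions. At the promoter (chr11:22001456-22002267, 0.151 kb upstream) there were 14.3, 16.5 and 16.4 CPM in aged libraries, against 10.2, 10.4 and 7.23 CPM in young libraries. All aged libraries were above all young ones, and the log2 fold change was 0.78 ± 0.14 (SE). A weak intergenic peak 8.66 kb downstream (chr11:21992762-21993338) had 0.909, 0.832 and 0.893 CPM in aged libraries, against 1.68, 2.27 and 1.74 CPM in young libraries, with a log2 fold change of −1.15 ± 0.27 (SE). This distal call was lost by DESeq2 (log2 fold change −1.14) and without any 1 of aged replicates 1, 2 and 3 or young replicate 2 (−1.17, −1.12, −1.17 and −0.97). Another peak of Otx1, in an intron 3.467 kb downstream, had 14.5, 14.8 and 14.3 CPM in aged and 13.6, 14.8 and 12.8 CPM in young libraries, a log2 fold change of 0.07.

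**Figure D2:**
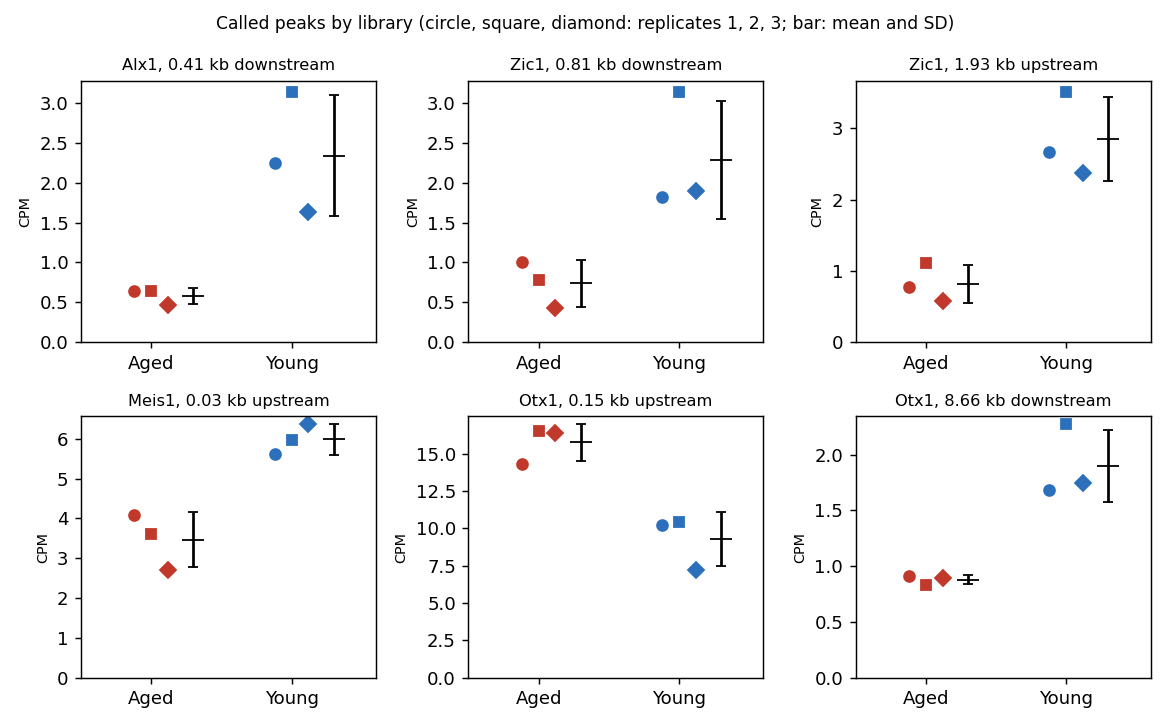
CPM of the 6 called peaks of the set in each library, aged left and young right, with the mean and SD (n = 3) beside the points. Aged libraries lie wholly below young ones in 5 panels and wholly above in the panel of the Otx1 promoter; markers give the replicate number, which stands for passage 4, 3 or 2.

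With the replicate number as a block, calls were more numerous over all genes as well as in the set. Promoters of the set called lower then numbered 5 and higher 2, where 1.68% and 1.83% of the promoter peaks of all genes were called. Distal peaks of the set called lower numbered 5 and higher 1, beside 0.994% and 1.42% of all distal peaks. The added promoter calls were En1 (log2 fold change −0.86) and Irx2 (−1.50), both lower, and Msx1 (0.44), higher. When all libraries were thinned to the depth of the shallowest, 0 promoters of the set were called lower, beside 0.508% of the promoters of all genes (Zic1 −1.52, Meis1 −0.57, Alx1 not tested) and the Otx1 promoter was still called higher, beside 0.374% of all. Neither distal call was kept after thinning (Zic1 −1.37, Otx1 −1.52) and 0 distal peaks of the set were called higher, beside 0.219% of all distal peaks called lower and 0.496% called higher.

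Over all tested promoter peaks of the set the median log2 fold change was −0.18, with 29 negative and 16 positive values, against a median of 0.03 over the promoter peaks of all genes. The aged libraries were wholly below the young ones at 11 of the 45 promoter peaks and wholly above at 4. Over the promoters of all genes these shares were 5.74% and 10.4%. Nothing is read from either, for the reason given above.

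By gene group, the paired-type homeobox promoters held both the lowest and the highest log2 fold change of the set, Alx1 and Otx1. Pitx3 (0.098 kb upstream) had 9.14, 9.06 and 9.98 CPM in aged libraries, against 9.12, 10.2 and 9.18 CPM in young libraries. Alx4, a gene of limb and skull patterning, had 2.86, 3.23 and 3.34 CPM in aged libraries, against 3.09, 5.18 and 3.22 CPM in young libraries. The ages overlapped at both.

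The 5 LIM homeobox promoter peaks had log2 fold changes of −0.83 to 0.13. The lowest was Lhx8, a gene of forebrain cholinergic neurons, with 0.682, 0.601 and 0.854 CPM in aged libraries, against 1.26, 1.48 and 1.05 CPM in young libraries. Its ages did not overlap, and it was not called. The highest was Lhx9, a gonad factor, with 3.09, 3.74 and 3.18 CPM in aged and 2.11, 4.20 and 2.16 CPM in young libraries. In the sine oculis group all 4 tested promoter peaks had negative values, −0.59 to −0.21, though the Six2 peak at 0.435 kb was positive without aged replicate 1 (0.02) or young replicate 2 (0.17). Six4, which acts in muscle and kidney precursors, had 3.59, 2.82 and 3.84 CPM in aged and 4.77, 3.93 and 4.38 CPM in young libraries at the peak 0.020 kb upstream. None of the LIM or sine oculis promoter peaks was called.

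Of 15 tested promoter peaks in the NK-like and related group, 9 had negative and 6 positive log2 fold changes, and none was called. The lowest was Emx2, a gene of dorsal forebrain and urogenital tract, with 0.364, 0.416 and 0.349 CPM in aged libraries, against 1.12, 0.719 and 0.897 CPM in young libraries (log2 fold change −1.18 ± 0.41, SE). En1, which patterns midbrain, hindbrain and limb, had 1.64, 1.29 and 1.51 CPM in aged and 2.81, 3.25 and 2.00 CPM in young libraries at 0.956 kb. At the other end, the peak over the printed Msx1 window had 12.9, 14.7 and 12.9 CPM in aged libraries, against 11.2, 11.3 and 8.07 CPM in young libraries (0.42 ± 0.14, SE). The ages did not overlap at any of these 3 peaks, nor at those of Dlx3, Msx2 (both lower), En2 at 0.927 kb and Nkx6-1 at 0.229 kb (both higher). The Emx2 peak lies inside the gene's RefSeq span, and another peak, annotated to Emx2os, meets the RefSeq window of Emx2. That other peak had 0.773, 1.29 and 0.932 CPM in aged and 0.561, 1.44 and 0.791 CPM in young libraries. The ages overlapped there, with a log2 fold change of −0.07.

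Among the TALE promoters the Iroquois gene Irx2, at 0.728 kb upstream, had the lowest value, with 0.682, 0.370 and 0.272 CPM in aged libraries, against 1.40, 1.21 and 0.949 CPM in young libraries. Its log2 fold change was −1.39 ± 0.38 (SE), not called here and called under the block, without the filter on low counts and without aged replicate 1 (−1.83). Irx3, whose peak covers the printed window, had 16.5, 17.7 and 18.2 CPM in aged and 15.9, 17.4 and 14.9 CPM in young libraries. The ages did not overlap at Irx2 and overlapped at Irx3.

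The 3 tested PAX promoters had log2 fold changes of −0.80 (Pax9, a tooth and thymus factor), −0.01 (Pax3, neural crest and muscle) and 0.19 (Pax2, kidney). The ages overlapped at all 3. All 4 tested T-box promoter peaks had positive values, 0.02 to 0.42, though the lowest of them, Tbx3, was at −0.02 under loess offsets and −0.04 without young replicate 2. The highest was at a weak peak of Tbx1, a pharyngeal arch factor, with 0.364, 0.508 and 0.776 CPM in aged and 0.281, 0.454 and 0.422 CPM in young libraries. None of the PAX or T-box promoters was called. The other tested ZIC promoter, that of the forebrain gene Zic2, had 0.409, 0.508 and 0.660 CPM in aged libraries, against 0.842, 0.832 and 0.686 CPM in young libraries, without overlap and not called.

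**Figure D3:**
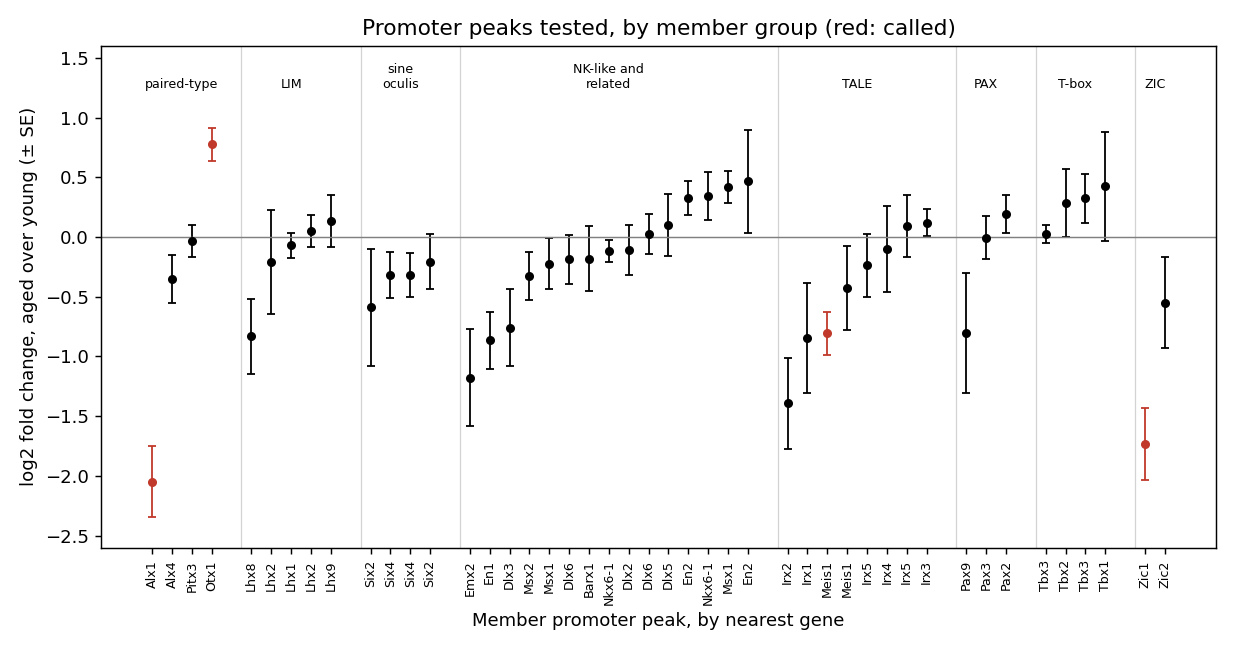
Log2 fold change (aged over young, ± SE) of the 45 tested promoter peaks of the set, grouped by gene family, with called peaks in red. Values run from −2.05 (Alx1) to 0.78 (Otx1); all 4 T-box values are positive (Tbx3 at −0.02 under loess offsets) and all 4 sine oculis values negative (Six2 at 0.17 without young replicate 2), none of these 8 called.

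Of the distal peaks of the set 48.6% were intergenic and 31.3% intronic, against 37.6% and 46.7% of all distal peaks. Meis2 had the most, 16, followed by Barx1 and Emx1 with 15 each. Their level had a median of 4.10 CPM per kb, against 5.87 over all distal peaks. The most open, 15.183 kb upstream of Pitx3 at 123 CPM per kb, lies in the promoter class of Gbf1, a neighbouring gene, with 73.2, 66.3 and 73.1 CPM in aged and 76.2, 64.3 and 76.8 CPM in young libraries. A peak in an intron 43.397 kb upstream of Meis2, another cofactor of HOX proteins, had 33.4, 31.5 and 30.8 CPM in aged and 31.9, 30.3 and 33.1 CPM in young libraries. The ages overlapped at both.

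Of the 259 distal peaks, 208 passed the filter. The 2 called lower were the exon peak of Zic1 and the downstream peak of Otx1, and 0 were called higher. Over all distal peaks 0.370% were called lower and 0.632% higher. At an unadjusted p under 0.05 there were 25 of the 208, beside 9.28% of all distal peaks. DESeq2 called 1 lower and 0 higher, beside 0.229% and 0.429% of all distal peaks. The median log2 fold change was −0.03, against −0.01 over all distal peaks. Aged libraries lay wholly below young ones at 15 distal peaks and wholly above at 13, against 6.86% and 7.54% of all distal peaks. Weak peaks near Irx1 and Irx2 were among those below: the Irx1 intron peak at 2.613 kb had 0.682, 0.693 and 0.738 CPM in aged libraries, against 1.40, 1.29 and 1.21 CPM in young libraries, and the intergenic peak 6.142 kb downstream of Irx2 had 0.318, 0.508 and 0.349 CPM in aged libraries, against 0.982, 1.1 and 0.844 CPM in young libraries. Among those above were 2 stronger peaks upstream of Pax9 and Pax2: 14.0, 15.4 and 13.5 CPM in aged libraries, against 11.7, 11.4 and 9.86 CPM in young libraries (Pax9, 17.454 kb), and 17, 18.2 and 15.9 CPM in aged libraries, against 13.3, 13.9 and 14.0 CPM in young libraries (Pax2, 5.230 kb). None of these 4 was called, though the Pax9 peak was called higher under the replicate block (0.40).

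**Figure D4:**
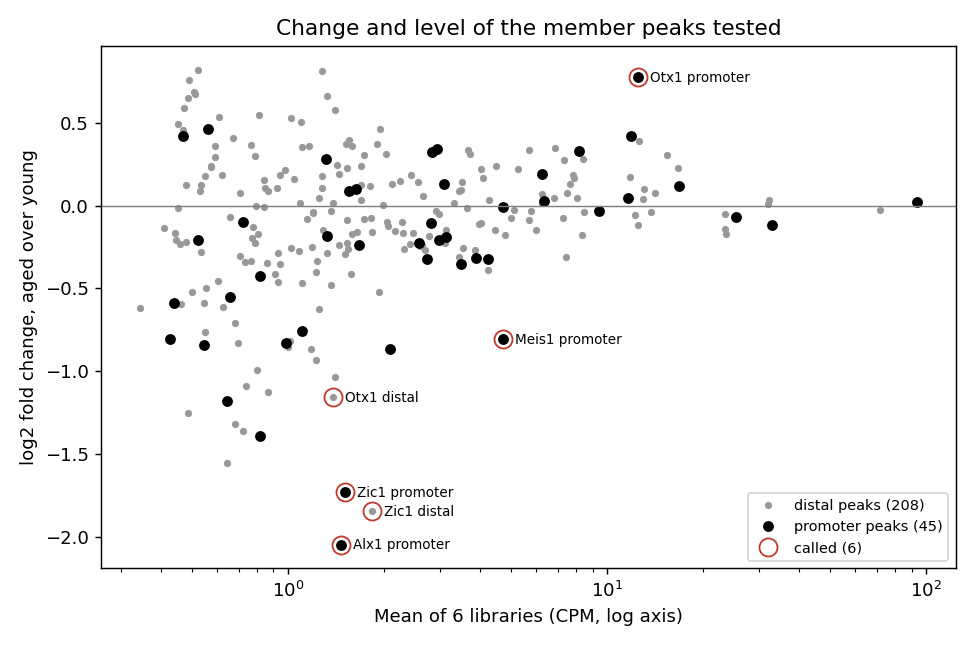
Log2 fold change (aged over young) against mean level (CPM, log axis) for the 45 promoter and 208 distal peaks tested, with the 6 called peaks ringed. The 5 peaks called lower lie under 5 CPM, as do 75.6% of the promoter and 81.7% of the distal peaks tested, and the Otx1 promoter, called higher, at 12.5 CPM.

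The annotated TSS of the deposited table is not always the RefSeq start, so peaks that meet a member's RefSeq window were also taken, whatever gene the annotation named for them. This comparison was chosen after the values were seen. Alx1 and Otx1 have no window, so their called promoter peaks could not enter this comparison. The windows of 26 of the 40 matched genes met a peak. For 12 genes the peak was already a promoter peak of the gene, for 7 it was annotated to the gene at over 1 kb (Dlx1, Emx1, Lhx4, Otx2, Pitx3, Tbx4 and Zic5) and for 7 to another gene (Emx2, Gbx2, Irx2, Lhx1, Meis2, Pax9 and Tbx1). Of the 28 peaks, 26 were tested, 3 were called lower and 0 higher, and the median log2 fold change was −0.06. Over the 12509 tested peaks that meet the window of any gene, 0.999% were called lower and 0.44% higher, with a median of 0.03. The age contrast was the one the genes were listed on, so nothing is read from these shares either.

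Apart from Meis1, the lower calls were at the windows of Irx2 and Gbx2, and neither peak carries the member's name in the annotation. The Irx2 window lies inside the gene's RefSeq span (chr13:72624430-72634196) and not at its upstream end. The peak that covers the Irx2 window (chr13:72628162-72629262, annotated to Gm20554) had 4.68, 3.79 and 4.81 CPM in aged libraries, against 8.98, 10.2 and 7.49 CPM in young libraries, with a log2 fold change of −1.01 ± 0.16 (SE). The peak that covers the window of Gbx2, a gene of the midbrain-hindbrain boundary (chr1:89930028-89931520, annotated to D130058E05Rik), had 4.23, 4.44 and 4.08 CPM in aged libraries, against 7.16, 8.40 and 6.80 CPM in young libraries, with a log2 fold change of −0.83 ± 0.16 (SE). At both, all aged libraries were below all young ones, and the call was kept in all 13 alternatives (−1.14 to −0.86 for Irx2 and −0.91 to −0.71 for Gbx2). By the annotated name, Gbx2 had only a weak promoter peak that did not pass the filter. The Pax9 window also lies inside its gene's RefSeq span (chr12:56691693-56712824). The peak there had 19.2, 17.8 and 14.7 CPM in aged and 15.2, 12.5 and 12.2 CPM in young libraries. At the Tbx1 window the levels were 14.5, 12.7 and 13.9 CPM in aged and 11.8, 12.1 and 11.2 CPM in young libraries. Neither was called, and the ages overlapped at Pax9 but not at Tbx1.

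**Figure D5:**
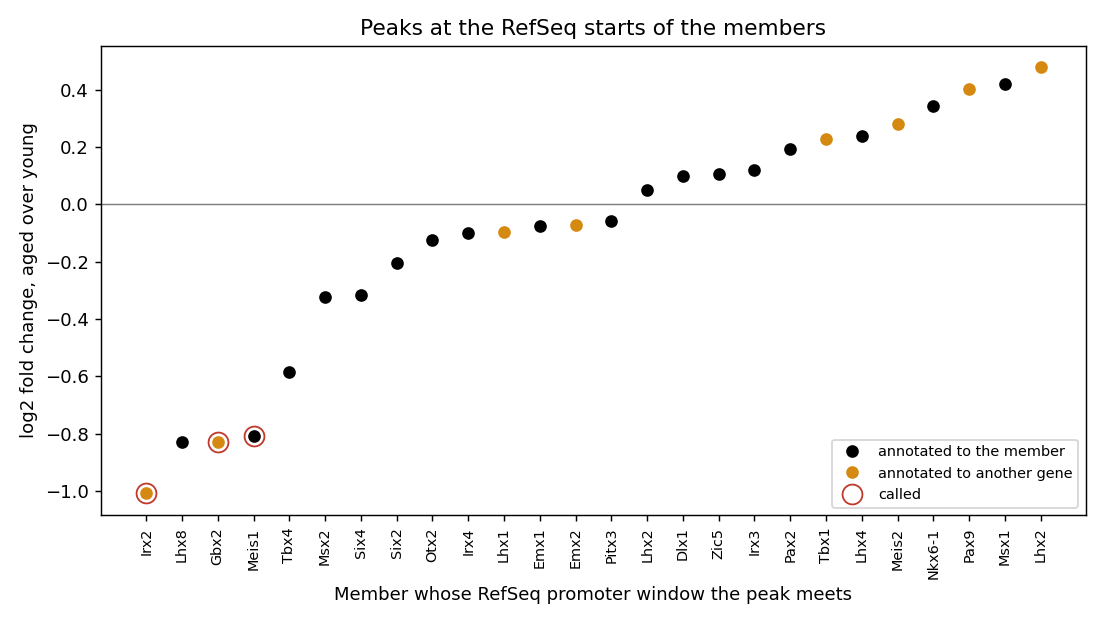
Log2 fold change (aged over young) of the 26 tested peaks that meet a member's RefSeq promoter window, in ascending order; orange points are annotated to another gene and rings mark called peaks. The 3 called peaks, at the windows of Irx2 (−1.01), Gbx2 (−0.83) and Meis1 (−0.81), were all lower in aged organoids. Alx1 and Otx1, whose promoter peaks were called, have no window and are not shown.

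Passage was a contrast that the list of genes had not used, and it entered the model as a number next to age. It went with the replicate number and the culture code in the titles. A passage slope and a difference between cultures therefore cannot be told apart. None of the 253 tested peaks of the set was called for passage by edgeR's quasi-likelihood test, against 0.00303% of all peaks. At an unadjusted p under 0.05 there were 8 (3.16%), against 5.27% of all peaks. The smallest adjusted p was 0.611, at a weak peak 3.314 kb upstream of Meis1 (log2 change −0.65 ± 0.20, SE, per passage). Passage 2, 3 and 4 had 1.59, 0.693 and 0.682 CPM there in aged libraries, and 1.74, 0.946 and 0.842 CPM in young libraries, so it was lowest at passage 4 in both ages. The next were an intron peak 19.962 kb upstream of Meis2 (0.27 per passage, adjusted p = 0.767) and an intergenic peak 6.798 kb upstream of Pax3 (0.40 per passage, adjusted p = 0.789).

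Genes of the same families that were not in the set gave a count for comparison. Of 85 such genes, 58 had a promoter peak and 69 of their 72 promoter peaks were tested. By edgeR 1 was called lower and 0 higher, beside 0.949% and 0.494% of the promoter peaks of all genes. DESeq2 also called 1 and 0, and the median log2 fold change was 0.01. The called promoter was that of Tbx18, a T-box gene of heart and ureter mesenchyme, with 2.36, 2.59 and 2.52 CPM in aged libraries, against 6.74, 5.67 and 3.74 CPM in young libraries (log2 fold change −1.06 ± 0.20, SE). Among 61 developmental factors of other families 49 promoter peaks were tested, and 0 were called by edgeR or by DESeq2, with 11 at an unadjusted p under 0.05, beside 10.5% of the promoter peaks of all genes. Of 12 gut homeobox promoter peaks 0 were called by edgeR or DESeq2, with 2 at an unadjusted p under 0.05. Distal peaks of the same lists did hold calls by edgeR. At the other genes of the families 4 were lower and 1 higher of 268 (1.49% and 0.373%). At the developmental factors 1 of 175 was lower, and at the gut homeobox genes 1 of 55. DESeq2 called 1 distal peak lower and 0 higher in each of these lists, beside 0.229% and 0.429% of all distal peaks. The set had 2 lower of 208 (0.962%), and the shares over all distal peaks were 0.370% lower and 0.632% higher.

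Marker genes of the cell types that the cultures could hold were read at their promoters, and none was called. Among their distal peaks 1 of 23 of the neural and glial markers was called higher by edgeR and by DESeq2. Over all distal peaks 0.632% were called higher by edgeR and 0.429% by DESeq2. Promoters of 7 of 10 epithelial markers summed to 276 to 289 CPM in aged and 253 to 275 CPM in young libraries, without overlap. All 8 tested promoter peaks of these markers had positive log2 fold changes (median 0.09, against 0.03 over the promoter peaks of all genes). The other 3 epithelial markers had no promoter peak, so a missing peak is not read here as absence of a cell type. Those of 6 of 12 mesenchymal markers summed to 27.4 to 32.9 CPM in aged and 23.7 to 31.2 CPM in young libraries, and no promoter peak was annotated to Col1a2, Col3a1, Dcn, Lum, Acta2 or Postn. For 4 of 7 neural and glial markers the sums were 26.4 to 28.1 CPM in aged and 20.9 to 27.6 CPM in young libraries. Immune markers (3 of 8) summed to 9.59 to 10.8 CPM in aged and 10.2 to 11.5 CPM in young libraries, with no promoter peak at Ptprc, Cd3e, Itgam or Csf1r among others. The 1 of 5 endothelial markers with a promoter peak, Kdr, had 1.86 to 2.22 CPM in aged and 2.69 to 3.71 CPM in young libraries, without overlap; Pecam1, Cdh5, Tek and Vwf had none. The part of other cell types in the results was not tested.

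The limits of the rule were set by distance alone. The promoter peak nearest inside 1 kb was at Six2 (0.987 kb), with 0.353 ± 0.149 CPM in aged and 0.527 ± 0.248 CPM in young libraries, and the nearest outside was at Dlx1 (1.078 kb), with 13.5 ± 0.261 CPM in aged and 12.6 ± 0.189 CPM in young libraries (SD, n = 3 each). At 50 kb, the peak nearest inside was at Pax7 (49.875 kb), with means of 0.398 CPM in aged and 0.405 CPM in young libraries, and the nearest outside at Meis2 (50.225 kb), with 5.16 and 5.39 CPM in aged and young libraries. A further 64 peaks named for these genes lay beyond 50 kb and were left out.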

How the data were processed

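The authors deposited counts per consensus peak for 6 libraries and an annotation of the 156733 peaks on GRCm38, which gives each peak a class and the gene with the nearest TSS. Per the submitters' processing notes they used BWA 0.7.17-r1188, Trim Galore 0.6.4, MACS2 2.2.7.1, featureCounts 2.0.1 and Picard 2.23.1. The deposited counts are raw featureCounts output, per the file headers; Tn5 shifting and the treatment of duplicates are not given in the sources used here. Reads carry no molecular identifiers. Coordinates are the annotation's, 1-based.

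Aged over young fold changes came from edgeR 4.0.16 under R 4.3.3, with its quasi-likelihood test, robust dispersions, TMM factors and filterByExpr (minimum count 10), over all peaks; 24678 peaks were left out. CPM were computed here with TMM-scaled library sizes. The edgeR fit without pairs was also run on simulated counts. These held no culture or passage effects, so that run says nothing of the source of the spread between libraries. DESeq2 1.42.0 and the other alternatives are given with the closing section. Scripts used Python 3.11.15 and pandas 2.3.3. Sequences are RefSeq's for GRCm38.p6; genes without a window, Alx1 and Otx1 among them, are named only. Some marker genes are not reported here by name.

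The members and the comparison lists were chosen with earlier results of these data known. Peaks were named by rule: those called, the lowest, the highest and the most open promoter of each gene group, and the 3 smallest passage p-values. Other peaks with values (Alx4, En1, the second peaks of Six4 and Otx1, the uncalled distal peaks and those at RefSeq starts) were chosen after their values were seen. Libraries of the same number have 1 culture code in their titles and were of 1 passage, though the descriptions give 1 code for all. They were taken as pairs only in the replicate block. The fold changes, SE and calls given as reported come from a fit without pairs. Deviations from the group means correlated at r = 0.0738, 0.126 and 0.144 between libraries of the same number.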

Additional observations from a re-analysis of the deposited data

How the results depend on the processing

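The alternatives were RLE factors, library totals without TMM, loess offsets, no filter on low counts, the replicate block, DESeq2, thinning to the shallowest library, and leaving out each library; other distances were tried for the counts. No called peak of the set changed direction under them. Promoters called lower numbered 3 as reported, 5 with the replicate block, 4 with no filter on low counts and 0 after thinning. They numbered 4 with promoters taken within 2 kb and 2 to 4 with a library left out. Promoters called higher numbered 1 as reported and under leave-one-out, and 2 with the replicate block. They numbered 0 where peaks meeting a RefSeq window, an alternative chosen after seeing the data, took the place of promoter peaks. Otx1 has no window, so its promoter could not be called there, and this 0 says nothing about the Otx1 call. Distal peaks called lower numbered 2 as reported, 1 by DESeq2, 5 with the replicate block, 4 with no filter on low counts, 0 after thinning and 1 to 4 with a library left out. Distal peaks called higher numbered 0 as reported, 1 with the replicate block and 0 to 1 with a library left out. Over all peaks, calls in both directions were also more numerous with the replicate block and with no filter on low counts. They were fewer by DESeq2 and after thinning, where fewer peaks were tested. With a library left out they were fewer, except without young replicate 2, where they were more. Whether the counts of the set moved apart from those of all peaks was not tested. The call at 1 promoter of other genes of the families became 2 with promoters taken within 2 kb. Passage gave 0 calls in the set under every alternative run for it. The replicate block's added distal calls were Irx1 (4.102 kb, −1.41), Lhx8 (2.223 kb, −1.04), Nkx6-1 (5.49 kb, −1.36) and Pax9 (17.454 kb, 0.40). Leaving out young replicate 3 added En1 (−1.07) at promoters and Irx1 (−1.94) and Lhx8 (−1.24) at distal peaks, and leaving out young replicate 2 added Lhx9 (19.671 kb, 1.67). Log2 fold changes ranged from −2.29 to −1.66 for Alx1, −2.01 to −1.36 for the Zic1 promoter, −2.11 to −1.37 for the Zic1 exon peak, −0.94 to −0.57 for Meis1 and 0.61 to 0.92 for the Otx1 promoter. The causes of these changes were not tested. The called Alx1 peak rests on 12 to 14 counts in aged and 16 to 83 counts in young libraries, and after thinning it did not pass the filter.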
